A study of Homo sapiens with 24 samples.

Results

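The replication-dependent histone genes supply the core histones H2A, H2B, H3 and H4 and the linker histone H1 that package newly made DNA. The members were the protein-coding genes of the deposited count table whose current symbol is H1-1 to H1-5 or has the form H2AC, H2BC, H3C or H4C followed by a number. This rule used no measured value and took 68 of 62757 genes. They comprised 5 H1 genes, 17 H2A genes, 18 H2B genes, 13 H3 genes and 15 H4 genes. Of the 68, 51 passed the filter on low counts and were tested, among 17724 tested genes in all.

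Most histone mRNAs of this kind are made while a cell copies its DNA, so that histone supply follows DNA synthesis. NPAT switches their transcription on under cyclin E and CDK2. Their mRNAs usually have no introns and end in a short stem-loop in place of a poly(A) tail. SLBP binds this stem-loop, guides cleavage together with the U7 small nuclear RNA, and the mRNA is broken down when replication stops. Variant histones such as H3.3 and H2A.Z are encoded elsewhere, by genes whose mRNAs carry a poly(A) tail and are made throughout the cell cycle. Cardiomyocytes leave the cell cycle as they mature, and histone mRNA is widely used as a mark of cycling cells.

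RNA was sequenced from 24 libraries of embryoid bodies, which are floating aggregates of differentiating cells, made from HES3, an established human embryonic stem cell line. Every group carried the reporters NKX2-5 GFP and NR2F2 mCherry and a CRISPR-Cas9 targeting: LHX2, ZNF503 or ZNF711, which encode transcription factors or zinc-finger proteins, or TRAC, the T-cell receptor alpha gene, as control. Each targeting was differentiated with a Wnt-modulating protocol for at most 14 days in 2 ways. The AM libraries are read here as the atrial condition, with retinoic acid at day 4, and the VM libraries as the ventricular condition, without it. There were 8 groups of 3 libraries, named by protocol and target. Whether a target was represented by 1 clone or several, and whether the 3 libraries of a group came from separate cultures, was not given in the sources used here. The p-values therefore measure the spread between these libraries, which may be technical.

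Library totals ran from 2899786 to 7438010 counts. Levels are given in CPM, the count scaled to its library's depth, after scaling between libraries by edgeR's trimmed mean of M values, unless another scale is named. Of the targeted genes, LHX2 lay at 0 to 7.09 CPM of the library total in all groups, too few to check the label. ZNF503 was higher in the libraries labelled ZNF503, at 272 to 375 against 107 to 121 CPM in AM TRAC and at 17.9 to 46.0 against 9.10 to 14.7 in VM TRAC. ZNF711 overlapped between the libraries labelled ZNF711 and their controls (31.1 to 57.5 against 46.9 to 60.8 in AM, 23.7 to 33.7 against 31.2 to 49.5 in VM). Gene counts do not show small edits. The labelled cardiomyocyte identity was checked with 11 marker genes, whose summed level was 11838 to 42371 CPM. Markers of other cell types were also present. The sum of 11 endoderm and hepatic genes was 624 to 3030 CPM in AM and 1776 to 26030 CPM in VM. It was highest in library 3 in 8 of 8 groups, in both protocols. In a bulk library, fewer cells of a type and less RNA per cell cannot be told apart.

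The stem-loop that stands in for the poly(A) tail was searched in the annotated transcripts as a 6-base stem around a 4-base loop, within 150 bases after the stop codon. The stem had to begin with GG and end with CC, the loop had to begin with TT, and G-T pairs (G-U in the RNA) were allowed. The H2AC11 version holds such a pair, and in the other versions every pair is G-C or A-T. It was found in 28 members, 22 to 56 bases after the stop codon. Among members with at least 60 annotated bases after the stop codon it was present in 27 of 29, against 0.159% of 18877 other protein-coding genes. The other members mostly have too little annotated sequence after the stop codon to hold it. The 5 versions found follow, with 1 or 2 members each, chosen to show how the stem differs between H4 and the other classes. Capitals mark the 16 bases of stem and loop, the letters are those of the GENCODE 29 transcripts on GRCh38, and coordinates are those of the capitals.

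H2BC21 (chr1:149886188-149886203, minus strand): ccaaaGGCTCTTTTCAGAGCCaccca
H2BC8 (chr6:26216218-26216233, minus strand): tcaaaGGCTCTTTTCAGAGCCactca
H2BC4 (chr6:26123472-26123487, minus strand): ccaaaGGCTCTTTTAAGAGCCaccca
H2AC11 (chr6:27133515-27133530, plus strand): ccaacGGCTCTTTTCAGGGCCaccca
H4C5 (chr6:26205001-26205016, plus strand): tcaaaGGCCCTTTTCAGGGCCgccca
H4C2 (chr6:26026901-26026916, minus strand): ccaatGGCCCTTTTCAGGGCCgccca
H4C9 (chr6:27139654-27139669, plus strand): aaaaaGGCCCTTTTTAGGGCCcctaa

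The version of H2BC21 and H2BC8 was found in 15 members and the version of H2BC4 in 4, none of them H4 genes. The versions of H4C5 and H4C9 were found in 5 and 3 members, all of them H4 genes. The H2AC11 version was found in that gene alone. In 25 members an annotated transcript also runs at least 200 bases past the stop codon, called an extended tail here. The other 39 had less, and 32 of them had no annotated base after the stop codon at all, so that their true ends are not in this annotation.

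Promoters were read from the RefSeq table of GRCh38.p14, which held 63 of the 68 members. In the 250 bases before the start site, on either strand, the TATA box TATAAA was present in 42 members (66.7%) against 11.1% of 27305 promoters of the same length. The CCAAT box, searched as CCAAT, was present in 53 members (84.1%) against 33.0%. The octamer ATTTGCAT, a POU-factor motif, was present in 26 members (41.3%) against 1.66%. These were 14 of 18 H2B, 11 of 16 H2A and 1 of 11 H3 promoters, and no H1 or H4 promoter. The CCAAT box was present in every H1, H2A, H2B and H3 promoter of the table and in 3 of 13 H4 promoters. The 130 bases before the start sites of 4 members named in the comparisons below are given with these motifs in capitals.

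H2BC21 (chr1:149886683-149886812, minus strand): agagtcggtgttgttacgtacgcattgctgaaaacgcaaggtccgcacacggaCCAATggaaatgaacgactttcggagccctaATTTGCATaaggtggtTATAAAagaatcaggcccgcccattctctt
H2BC8 (chr6:26216689-26216818, minus strand): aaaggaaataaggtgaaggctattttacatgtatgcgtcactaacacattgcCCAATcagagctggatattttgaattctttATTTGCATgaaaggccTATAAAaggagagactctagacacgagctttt
H3C10 (chr6:27809921-27810050, plus strand): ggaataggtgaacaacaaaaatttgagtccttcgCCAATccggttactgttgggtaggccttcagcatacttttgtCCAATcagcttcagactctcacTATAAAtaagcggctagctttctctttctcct
H4C2 (chr6:26027284-26027413, minus strand): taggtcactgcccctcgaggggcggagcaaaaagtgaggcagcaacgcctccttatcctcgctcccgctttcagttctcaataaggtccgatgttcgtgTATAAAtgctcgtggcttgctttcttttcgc

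H2BC21 and H2BC8 hold the CCAAT box, the octamer and the TATA box in this order, H3C10 holds CCAAT and TATA boxes, and H4C2 holds the TATA box alone in this stretch. A match is a description of letters and was not tested as a bound site.

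The 64 members in GENCODE 29 encoded 33 distinct proteins by the longest reading frame of their annotated transcripts. One H4 protein is encoded by 14 genes and one H3 protein by 8. The coding sequences of H4C11 and H4C12 are identical, as are those of H3C14 and H3C15 and of H4C14 and H4C15, so counts of these pairs are uncertain: reads that match both copies can be split or dropped.

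Histone counts summed to 196292 over all libraries, and 64 of the 68 members had at least 1 count. The 51 tested members had a count in every library, and their mean levels ran from 1.98 to 168 CPM with a median of 22.3. The 17 others had at most 34 counts each over all libraries. They were H1-1, H2AC1, H2AC7, H2AC17, H2AC18, H2AC19, H2AC25, H2BC1, H2BC3, H2BC26, H3C3, H3C4, H3C14, H3C15, H4C7, H4C14 and H4C15. H2AC7, H2BC1, H3C4 and H4C15 had no count, where 3 counts over all libraries, the limit that a count of 0 allows, equals 0.0249 CPM. Several of the 17 are copies or overlap another histone gene in the annotation (H2AC7 with H3C4, H2AC19 and H3C15 with H4C15, H2AC17 with an H3 gene), so their counts are uncertain.

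**Figure D1:**
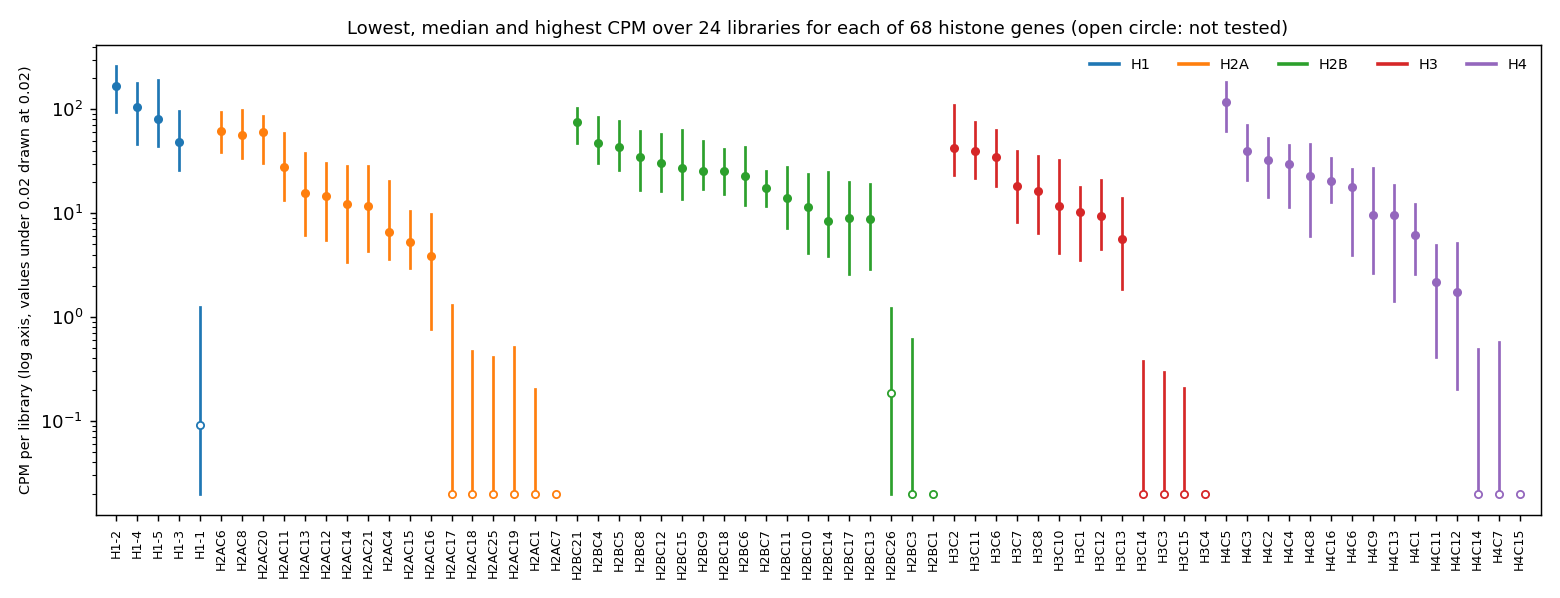
Each bar runs from the lowest to the highest CPM over 24 libraries for 1 of 68 histone genes, on a log axis, and the circle is the median (open where the gene was not tested). The 51 tested genes form a graded series within each class, and the 17 untested genes lie below them.

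By class, H2B genes held 25.4% of the members' counts, H1 genes 25.2%, H4 genes 19.1%, H2A genes 17.7% and H3 genes 12.5%. The 5 genes with the most counts held 33.8% and the 10 with the most held 51.2%. The proximal part of the chromosome 6 cluster, with 33 members, held 64.8%, and its distal part, with 21 members, held 22.7%. The 11 members at chromosome 1 q21 held 11.1%, and H4C16, the single member on chromosome 12, held 1.37%. The 2 members at chromosome 1 q42 held 0.0199%.

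H1 genes encode the linker histones that bind DNA between nucleosomes. Per kilobase of RefSeq gene length, H1-2 had the highest median level, 230 CPM per kb over the 24 libraries (128 to 357). It was followed by H1-4 at 134 (58.5 to 229), H1-5 at 101 (56.1 to 241) and H1-3 at 62.3 (33.3 to 124). The library ranges of neighbours in this order overlapped down to H1-3. H1-1 was far below, at 0.121 (0 to 1.66), with 29 counts in all, and 13 of these came from the 3 VM ZNF711 libraries.

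All 68 members together held 0.0961% to 0.262% of a library's counts. Their summed level was 1454, 1833 and 1898 CPM in AM TRAC libraries 1 to 3, and 1058, 1188 and 1269 CPM in AM LHX2. It was 1144, 2053 and 1569 CPM in AM ZNF503 and 1281, 2240 and 2368 CPM in AM ZNF711. The AM LHX2 libraries were all below the 3 control libraries of their protocol, while AM ZNF503 and AM ZNF711 overlapped with them. In the ventricular protocol the sum was 932, 1665 and 1463 CPM in VM TRAC, and 950, 1460 and 2014 CPM in VM LHX2. It was 1478, 1870 and 1639 CPM in VM ZNF503 and 1644, 2764 and 2006 CPM in VM ZNF711. VM TRAC overlapped with each of the other ventricular groups.

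**Figure D2:**
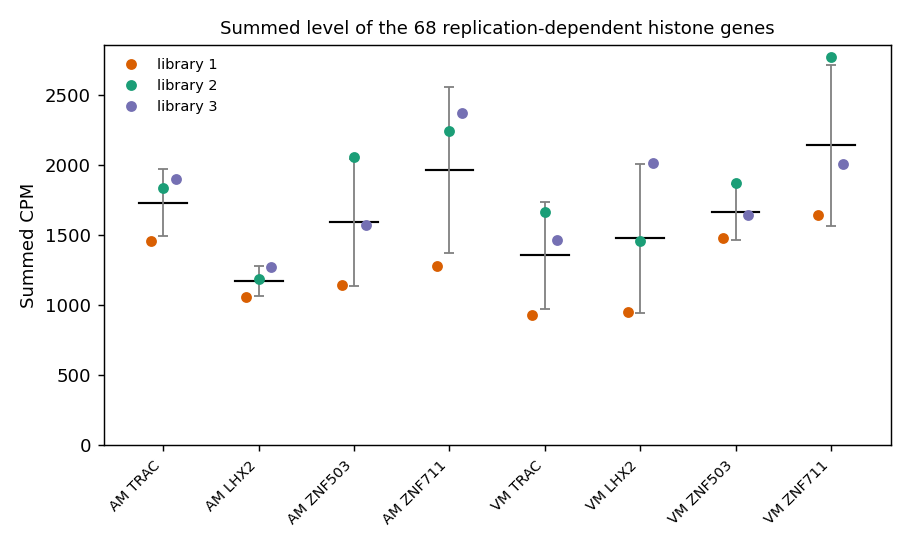
Points are the summed CPM of the 68 histone genes in each library, coloured by library number, with the group mean (black line) and SD (grey bar, n = 3). Library 1 is the lowest point of its group in 8 of 8 groups, and the 3 AM LHX2 points lie between 1058 and 1269 CPM.

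Histone levels moved with the library number. Library 1 had the lowest sum in 8 of 8 groups. Of the 51 tested members, 28 (VM ZNF503) to 48 (AM ZNF711) were lowest in library 1 of their group, where 33.5% to 41.7% of all tested genes were. Other lists moved with library number too. The summed level of 30 short noncoding RNAs without a poly(A) tail, such as RN7SL1 of the signal recognition particle and RMRP of RNase MRP, was lowest in library 1 in 8 of 8 groups. Histone chaperones, replication-independent histones, genes of cell cycle exit and smooth muscle markers were lowest in library 1 in 8 of 8 groups as well. The long noncoding RNAs MALAT1 and NEAT1, whose 3′ ends are triple helices, were lowest in library 1 in 0 of 8 groups. Their summed level was 11930 to 20110 CPM in the libraries numbered 1 and 5814 to 13256 CPM in the others. The genes of S-phase replication were lowest in library 1 in 5 of 8 groups and those of G2 and mitosis in 2 of 8. What the libraries numbered 1 share was not given in the sources used here, and its part in the histone level was not tested.

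**Figure D3:**
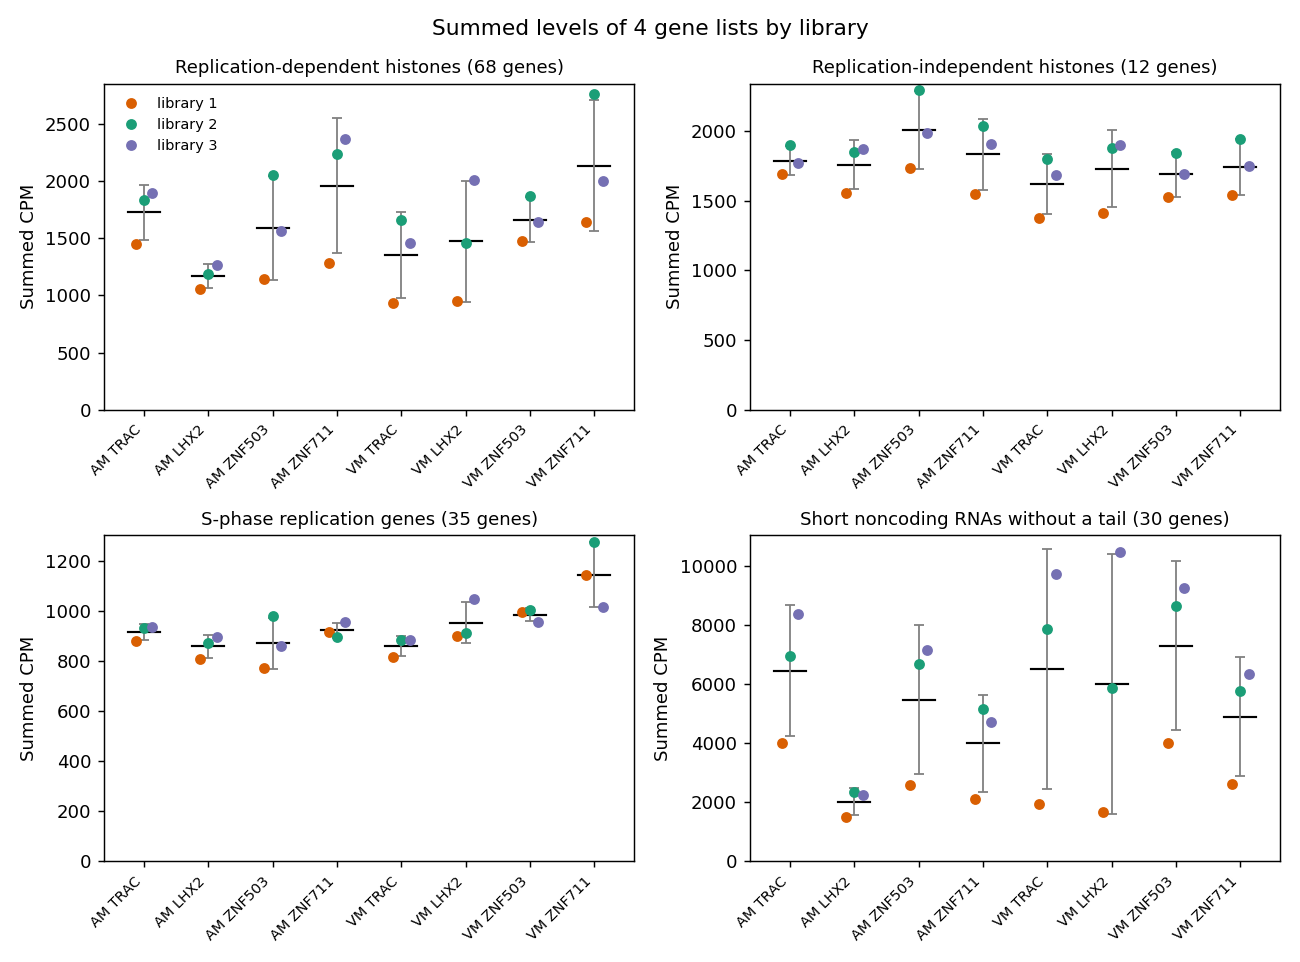
Summed CPM of 4 gene lists by library, with the group mean (black line) and SD (grey bar, n = 3). The histone genes, the replication-independent histones and the short noncoding RNAs are lowest in library 1 in 8 of 8 groups. The AM LHX2 libraries are low in the replication-dependent histone genes and the short noncoding RNAs.

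The labels name polyA RNA as the molecule and also a ribosomal depletion kit (KAPA RiboErase, Roche), so the values that bear on this are given without a verdict. Members ending in a stem-loop are recovered poorly when RNA is selected by its poly(A) tail, unless a tailed form is made. Here 51 members had counts in every library, and H1-2, the member with the most counts, has no annotated base after its stop codon in GENCODE 29, so whether it has a tailed form is not shown there. Members with an extended tail gave 38.6% to 44.9% of the summed histone level. RN7SL1 was counted at 778 to 6535 CPM and RMRP at 676 to 3777 CPM, while RN7SK, RPPH1 and RN7SL2 were listed at 0 in every library. Genes annotated as ribosomal RNA held 0.00272% to 0.00743% of counts, and the 2 mitochondrial ribosomal RNAs held 0.00621% to 0.547%. There is no library of known selection among the 24 to set beside these values, so the way the RNA was selected was not tested.

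In every comparison below, a gene was called when edgeR's quasi-likelihood test gave an adjusted p (Benjamini-Hochberg over 17724 genes) under 0.05. Libraries with the same number deviated together in both protocols, so each comparison was also fitted with the number as a block, and those values are given where they change a call.

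**Figure D4:**
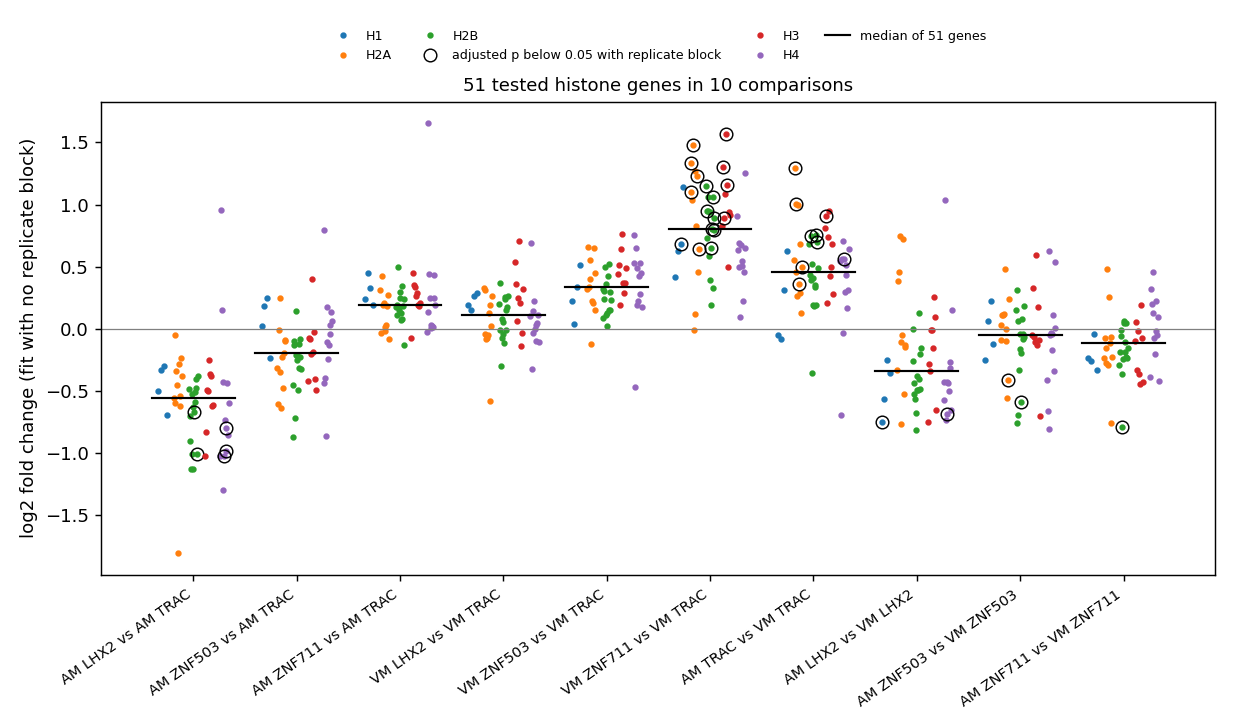
Each point is the log2 fold change of 1 of 51 tested histone genes in 1 of 10 comparisons (fit with no block), coloured by class, with the median as a black line and genes called in the fit with the block circled. The medians are -0.56 for AM LHX2 against AM TRAC, 0.80 for VM ZNF711 against VM TRAC and 0.46 for AM TRAC against VM TRAC.

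The first comparison asked how the targeting of LHX2, a LIM-homeobox gene, went with histone levels in the atrial protocol. Histone genes of all 5 classes lay lower in AM LHX2 than in AM TRAC, by a median of -0.56 on the log2 scale, with 49 of 51 estimates below 0. The median over all tested genes was -0.00. The AM LHX2 libraries held 2899786, 3686010 and 5093067 counts in total, against 5340447, 6353517 and 5548351 in AM TRAC. The part of this lower depth was not tested. Without the block 0 members were called lower (0% of all tested genes), by edgeR and also by DESeq2, with 16 members at an unadjusted p under 0.05, as were 7.74% of all tested genes. With the replicate block 5 members fell, against 0.677% of all tested genes called lower. In 29 of 51 members the 3 AM LHX2 libraries lay below all 3 control libraries, as was the case for 9.72% of all tested genes.

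The members that fell with the block were H2BC21, H2BC8, H4C2, H4C4 and H4C5, 2 genes of H2B and 3 of H4. H4C5 (chr6:26204610-26205021), the H4 gene with the most counts, measured 135, 147 and 132 CPM in AM TRAC and 80.6, 76.0 and 81.8 CPM in AM LHX2. The groups were well apart, with a log2 fold change of -0.80 ± 0.28 (SE) without the block (adjusted p = 0.515) and -0.80 ± 0.18 with it (adjusted p = 0.0329). H4C2 measured 34.9, 38.9 and 35.3 CPM against 14.5, 20.9 and 17.9 CPM. It had the lowest adjusted p of the members in this comparison, 0.392 without the block and 0.00841 with it, at -1.03 ± 0.30 and -1.06 ± 0.20. H2BC8 measured 39.2, 44.8 and 41.4 CPM against 25, 21.2 and 16.5 CPM. H2BC21, which lies apart from these on chromosome 1, measured 70.1, 88.5 and 88.7 CPM against 46.9, 48.1 and 60.1 CPM. Neither gene's groups overlapped, and their log2 fold changes with the block were -1.01 (adjusted p = 0.0206) and -0.67 (adjusted p = 0.0165). H4C3, the second H4 gene by counts, measured 31.3, 53.5 and 52.8 CPM against 26.0, 26.6 and 30 CPM, without overlap, and was not called (adjusted p = 0.663 without and 0.136 with the block). H4C4 measured 28.2, 39.3 and 34.6 CPM against 13.2, 24 and 14.3 CPM (-1.03 with the block, adjusted p = 0.0277).

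The class medians were -0.76 for 12 tested H4 genes, -0.63 for 15 H2B genes, -0.50 for 9 H3 genes, -0.45 for 11 H2A genes and -0.42 for 4 H1 genes. Members with an extended tail had a median of -0.59 and those with a short tail one of -0.54. Those of the proximal and the distal part of the chromosome 6 cluster had medians of -0.51 and -0.60. The largest H1 gene by counts, H1-2, measured 127, 154 and 180 CPM in AM TRAC and 93.8, 99.8 and 131 CPM in AM LHX2, so its groups overlapped. H1-4 measured 72.7, 110 and 117 CPM against 66.5, 90.5 and 85.9 CPM, which overlapped too. H2AC6 measured 53.1, 71.5 and 55.6 CPM against 38.5, 51.7 and 62.2 CPM. H3C11 measured 40.5, 35.3 and 46.5 CPM against 21.8, 30.2 and 34.2 CPM, a difference without overlap that was not called.

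The genes that make and process histone mRNA were not called in this comparison. NPAT, the coactivator of histone transcription, measured 29.1, 33.1 and 37.0 CPM in AM TRAC and 36.6, 37.0 and 44.9 CPM in AM LHX2 (adjusted p = 0.776 without and 0.542 with the block). SLBP, the stem-loop binding protein, measured 37.1, 40.6 and 37.9 CPM against 27.0, 42.9 and 44.3 CPM (adjusted p = 0.999 and 0.955). None of 35 genes of S-phase replication and none of 20 tested genes of G2 and mitosis was called in either fit, with medians of -0.10 and -0.09. The summed S-phase level was 878, 933 and 937 CPM in AM TRAC and 807, 870 and 895 CPM in AM LHX2. Of 11 replication-independent histone genes 0 were called, with a median of -0.07.

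Short noncoding RNAs without a poly(A) tail were lower in the same libraries. Their summed level was 4021, 6978 and 8377 CPM in AM TRAC and 1489, 2347 and 2248 CPM in AM LHX2, with no overlap. The 10 that were tested all had estimates below 0, with a median of -1.38, and with the block RN7SL1, RMRP and SCARNA7 fell. RMRP measured 2218, 3246 and 3089 CPM in AM TRAC and 676, 1047 and 868 CPM in AM LHX2 (-1.72 with the block, adjusted p = 0.0211). NEAT1 rose with the block (0.84, adjusted p = 0.0163). The part of these RNAs' shift in the histone result was not tested. Of the cell-type lists, 7 of 7 endothelial markers had estimates below 0 with a median of -0.40, and TIE1 fell with the block. The 4 smooth muscle markers had a median of -0.58, and ACTA2 fell with the block. The sum of the endothelial markers was 492, 711 and 517 CPM in AM TRAC and 386, 583 and 348 CPM in AM LHX2, with overlap. The smooth muscle sum was 919, 971 and 1497 CPM against 606, 796 and 632 CPM, without overlap. The fibroblast and epicardial sum was 4654, 5279 and 5939 CPM against 3583, 4523 and 3549 CPM, also without overlap. The sums of the cardiomyocyte, endoderm and hepatic, neural and pluripotency markers overlapped. The part of cell makeup was not tested either.

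The next comparison was VM ZNF711 against VM TRAC, on the targeting of the zinc-finger gene ZNF711 in the ventricular protocol. Here the histone genes lay higher, by a median of 0.80, with 50 of 51 estimates above 0 and a median over all genes of -0.01. Without the block 0 members were called, by edgeR and by DESeq2, where 0.0169% of all tested genes were called higher, and 29 members had an unadjusted p under 0.05, as did 9.40% of all tested genes. With the block 17 members rose, where 1.25% of all tested genes were called higher. In 24 members all VM ZNF711 libraries lay above all VM TRAC libraries, as in 5.41% of all tested genes.

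The members that rose were 7 of 15 tested H2B genes, 5 of 11 H2A genes, 4 of 9 H3 genes, 1 of 4 H1 genes and 0 of 12 H4 genes. The difference between classes was not tested, and the 12 H4 genes had a median of 0.59. H3C2 (chr6:26031589-26032099), the H3 gene with the most counts, measured 29.5, 40.0 and 37.7 CPM in VM TRAC and 63.6, 111 and 65.2 CPM in VM ZNF711. The groups did not overlap (1.15 ± 0.24 with the block, adjusted p = 0.0177; 0.215 without it). H3C10 measured 4.10, 11.1 and 9.54 CPM against 16.3, 24.5 and 20.7 CPM (1.38 ± 0.28 with the block, adjusted p = 0.00837).

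Among H2A genes, H2AC11 measured 17.8, 24.3 and 22.1 CPM in VM TRAC and 30.4, 59.3 and 47.9 CPM in VM ZNF711. It had the lowest adjusted p of the members, 0.00660 with the block, at 1.08 ± 0.21. H2AC12 measured 5.54, 7.84 and 11.5 CPM against 17.3, 29.5 and 16.5 CPM (1.39 ± 0.28 with the block, adjusted p = 0.00880). In both genes the groups were apart. Of the H2B genes, H2BC6 measured 12.3, 15.1 and 20.7 CPM against 29.9, 43.1 and 28.0 CPM, and H2BC10 4.10, 9.28 and 14.9 CPM against 17.3, 24.1 and 22.1 CPM. Their adjusted p with the block was 0.0155 and 0.0173. H2BC6 overlaps an unnamed gene on the opposite strand, and reads of both cannot be told apart if the counting ignored strand. The remaining genes that rose were H1-4, H2AC4, H2AC8, H2AC14, H2BC4, H2BC5, H2BC8, H2BC9, H2BC12, H3C11 and H3C13. Their log2 fold changes with the block ran from 0.63 for H2BC4 to 1.57 for H3C13.

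Cell-cycle genes were higher in the same libraries. Of 20 tested genes of G2 and mitosis, 20 had estimates above 0 with a median of 0.89, and 13 rose with the block, among them TPX2 and CENPF. Of 35 S-phase genes, 32 had estimates above 0 with a median of 0.47, and MCM6, MCM10, GINS1 and RRM2 rose with the block. RRM2, a subunit of the enzyme that makes deoxyribonucleotides, had a log2 fold change of 1.29 with the block (adjusted p = 0.00601). The S-phase sum was 815, 882 and 882 CPM in VM TRAC and 1142, 1276 and 1017 CPM in VM ZNF711. NPAT measured 43.5, 34.9 and 34.9 CPM against 34.9, 46.8 and 43.5 CPM, and SLBP 37.3, 41.7 and 58.7 CPM against 40.6, 48.3 and 56.2 CPM. Both overlapped between the groups, with adjusted p of 0.676 and 0.835 with the block. The 11 genes of histone transcription, NPAT among them, summed to 357, 338 and 384 CPM in VM TRAC and 407, 455 and 434 CPM in VM ZNF711, without overlap. All 11 had estimates above 0 with a median of 0.33, and none was called in either fit. All 16 genes of histone mRNA 3′ processing and decay were uncalled, with a median of -0.01. Of 11 tested genes in the list of replication-independent histones, H2AZ1 and H2AX rose and MACROH2A1 fell with the block, and the median was 0.22. The list went by gene name, and whether each of its genes is independent of replication was not tested.

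The cell-type markers also differed between these groups. The summed cardiomyocyte markers were 42371, 37973 and 15680 CPM in VM TRAC and 17742, 16030 and 11838 CPM in VM ZNF711. All 11 had estimates below 0, and TNNT2 fell with the block. The pluripotency markers summed to 105, 114 and 248 CPM against 327, 402 and 328 CPM, without overlap, and LIN28A rose with the block. The endoderm and hepatic sum was 4209, 3463 and 24839 CPM against 10728, 18810 and 26030 CPM. The neural markers summed to 9.23, 2.06 and 15.8 CPM against 41.1, 31.2 and 15 CPM, and PAX6 was called higher without the block (adjusted p = 0.0352). The short noncoding RNAs went the other way from the histone genes, with 9 of 10 tested estimates below 0 and a median of -1.02. The part of cell makeup in the histone result was not tested. Without VM TRAC library 3 the fit without a block called 4 members, and with the VM libraries numbered 3 left out it called 8. The share of all tested genes called with these libraries left out was not worked out.

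The atrial and ventricular protocols were compared within each targeting. AM TRAC and VM TRAC also served as the controls for the targetings. A member called in several of these comparisons was therefore not found independently each time. In the TRAC control, histone genes lay higher in AM than in VM, by a median of 0.46, with 46 of 51 estimates above 0 and a median over all genes of -0.04. One member, H2AC12, rose without the block (6.18% of all tested genes were called higher), and DESeq2 called 1 as well. With the block 9 members rose, where 10.2% of all tested genes were called higher. All AM TRAC libraries lay above all VM TRAC libraries in 15 of 51 members, where 14.3% of all tested genes did so.

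H2AC12 (chr6:27147106-27147562, RefSeq position on GRCh38.p14, as for the genes above) measured 14.3, 23.9 and 23.5 CPM in AM TRAC and 5.54, 7.84 and 11.5 CPM in VM TRAC. The groups did not overlap, and the log2 fold change was 1.30 ± 0.38 (adjusted p = 0.0252) without the block and 1.31 ± 0.28 (adjusted p = 0.000746) with it. The call was lost without AM TRAC library 2 (adjusted p = 0.104), AM TRAC library 3 (0.0825), VM TRAC library 1 (0.105) or VM TRAC library 2 (0.0676), at log2 fold changes of 1.08 to 1.26. With the block H2AC8, H2AC14, H2AC20, H2BC6, H2BC8, H2BC12, H3C10 and H4C2 rose too, by 0.44 (H2AC20) to 1.05 (H2AC14). H2BC8 measured 39.2, 44.8 and 41.4 CPM in AM TRAC and 17.8, 35.3 and 24.1 CPM in VM TRAC (adjusted p = 0.0105 with the block). H4C2 measured 20.1, 32.8 and 21 CPM in VM TRAC, below its 3 AM TRAC values. H2AC8, which lies beside H2BC8, measured 52.1, 79.9 and 76.3 CPM against 33.9, 62.5 and 51 CPM, which overlapped.

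The S-phase genes had a median of 0.12 in this comparison, with MCM3 and MCM4 higher and TYMS lower with the block. Of the G2 and mitosis genes AURKA fell. CCNE1, which encodes a cyclin E, fell in AM TRAC relative to VM TRAC (-1.29, adjusted p = 0.0318 without the block). SLBP and NPAT were not called, at -0.26 (adjusted p = 0.476) and -0.19 (adjusted p = 0.611). Of the replication-independent histones, H2AZ2 and H2AJ rose without the block. Markers of several cell types differed with the protocol: 4 of 8 tested fibroblast and epicardial markers and 4 of 7 endothelial markers rose, and 5 of 11 endoderm and hepatic markers and 4 of 11 cardiomyocyte markers fell, without the block. The part of these cells in the histone difference was not tested.

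In the other targetings the medians lay below 0, the side of lower levels in AM, but only slightly in ZNF503 and ZNF711. In AM LHX2 against VM LHX2 the median was -0.34, with 9 of 51 estimates above 0. In AM ZNF503 against VM ZNF503 it was -0.05, with 20 above 0, and in AM ZNF711 against VM ZNF711 it was -0.11, with 13 above 0. Without the block 0 members were called in any of these by edgeR or DESeq2, where 8.56%, 8.86% and 13.2% of all tested genes were called, and 3, 3 and 2 members had an unadjusted p under 0.05, where 20.4%, 19.8% and 27.1% of all tested genes did. With the block H1-2 and H4C2 fell in LHX2 (7.75% of all tested genes were called lower). H2AC6 and H2BC4 fell in ZNF503 (7.06%), and H2BC15 fell in ZNF711 (12%). The calls in LHX2 and ZNF711 were lost with a separate block within each protocol, a setting chosen after seeing the data. H1-2 measured 93.8, 99.8 and 131 CPM in AM LHX2 and 113, 190 and 245 CPM in VM LHX2, with overlap, and the adjusted p with the block was 0.00479. H2BC4 measured 32.5, 37.0 and 35.7 CPM in AM ZNF503 and 52.8, 56.4 and 48.8 CPM in VM ZNF503, without overlap (-0.59 with the block, adjusted p = 0.0176). H2BC15 measured 20.5, 30.6 and 31.7 CPM in AM ZNF711 and 36.6, 62.8 and 43.3 CPM in VM ZNF711 (-0.80 with the block, adjusted p = 0.0435). H2BC15 overlaps other histone genes on both strands in the annotation, so its counts are uncertain. Without VM LHX2 library 1, H4C2 was called in the fit without the block (-0.95, adjusted p = 0.0449).

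Whether a targeting went with a different histone change in the 2 protocols was tested as an interaction. The 3 tests share the AM TRAC and VM TRAC libraries and are not independent. No member was called in any of them, without or with the block, by edgeR, and DESeq2 called 0. Of all tested genes 0%, 0% and 0.00564% were called for LHX2, ZNF503 and ZNF711 without the block, and 0%, 0% and 0.0282% with it. The medians were -0.69, -0.51 and -0.62, and 48, 47 and 48 of 51 estimates were below 0. At an unadjusted p under 0.05 there were 9, 7 and 5 members without the block, where 3.72%, 1.95% and 6.40% of all tested genes were. With the block there were 22, 14 and 21 members, where 8.21%, 4.16% and 10.4% of all tested genes were. A separate block within each protocol called 1 member for LHX2 and 2 for ZNF711, and the fit with no filter on low counts called 1 for ZNF711. The share of all tested genes called under these settings was not worked out.

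The remaining targetings were compared with TRAC in the same protocol: ZNF503 and ZNF711 in AM, and LHX2 and ZNF503 in VM. No member was called in these 4 comparisons by edgeR or DESeq2, where 0% of all tested genes were called in each. With the block no member was called either, where 0.00564%, 0.0395%, 0.00564% and 0% of all genes were. At an unadjusted p under 0.05 there were 2, 1, 0 and 0 members without the block, where 1.74%, 3.49%, 2.61% and 1.55% of all tested genes were. With the block there were 4, 1, 0 and 9 members, where 3.70%, 8.07%, 5.81% and 3.37% of all tested genes were. The medians were -0.19 for AM ZNF503, 0.19 for AM ZNF711, 0.11 for VM LHX2 and 0.34 for VM ZNF503, and in the last 49 of 51 estimates were above 0. All VM ZNF503 libraries lay above all VM TRAC libraries in 7 of 51 members, as in 2.03% of all tested genes. H4C5 gives an example of the spread: it measured 102, 184 and 117 CPM in AM ZNF503 and 93.7, 168 and 157 CPM in AM ZNF711, around its AM TRAC values of 132 to 147 CPM. In VM it measured 70.0, 132 and 105 CPM in TRAC, 61.3, 103 and 123 CPM in LHX2, and 88.0, 167 and 118 CPM in ZNF503.

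Across the 8 groups, 36 of 51 tested members had their highest mean level in VM ZNF711 and 12 in AM ZNF711. The lowest mean was in AM LHX2 for 31 members and in VM TRAC for 11. How all tested genes were spread over the groups in this way was not worked out, so these counts have no background. The mean of the summed level was 1171 ± 106 CPM in AM LHX2 (SD, n = 3), 1353 ± 379 in VM TRAC, 1728 ± 240 in AM TRAC and 2138 ± 571 in VM ZNF711. The AM LHX2 and AM TRAC libraries did not overlap in this sum, while those of VM TRAC and VM ZNF711 did.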

How the data were processed

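The authors deposited 1 table of raw gene counts for 24 libraries (unit: count). STAR and GRCh38 are named in the submitters' processing notes. The aligner version, counting program, strandedness, treatment of reads with several matches and annotation release are not given in the sources used here. Every column was matched to a library by its name, and 0 columns were not used. Identifiers were paired with current symbols for 62639 of 62757 rows.

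Genes were kept by edgeR's filterByExpr and tested with edgeR 4.0.16 (R 4.3.3; limma 3.58.1) by the quasi-likelihood test over all 8 groups, with trimmed-mean scaling and Benjamini-Hochberg adjustment over 17724 genes. DESeq2 1.42.0 was an alternative. The scripts were tested on simulated data. Replicate numbers were taken to pair libraries. Over 11428 genes at a log2 CPM of at least 3, same-numbered libraries deviated together in all 10 pairs of groups. The correlations were 0.198 to 0.786 within a protocol and 0.125 to 0.520 between protocols. The biological coefficient of variation was 25% without and 16.9% with the block. Libraries of a group differed beyond counting noise (chi-square per degree of freedom 4.33 to 44.2), so none was the same library counted again. Separate cultures and technical repeats cannot be told apart this way. Floors cover counting error only.

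The members and gene lists were chosen with earlier results of these data known. Named were the 2 members with the most counts in each class, the H1 genes, called members (6 of lowest p where over 12), SLBP and NPAT, and up to 4 genes of lowest p per list; other examples were chosen after their values were seen.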

Additional observations from a re-analysis of the deposited data

How the results depend on the processing

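The counts of members called depended on the fit, while relative log expression scaling, a minimum of 1 CPM in 3 libraries and DESeq2 left each within 1.5 times its value. With the replicate block, which pairs libraries by number, 5 members were called in AM LHX2 vs AM TRAC, 17 in VM ZNF711 vs VM TRAC, 9 in AM TRAC vs VM TRAC, 2 in AM LHX2 vs VM LHX2, 2 in AM ZNF503 vs VM ZNF503 and 1 in AM ZNF711 vs VM ZNF711, against 0, 0, 1, 0, 0 and 0 without it. In the other comparisons it changed no call. With a separate replicate block within each protocol, chosen after seeing the data, the counts were 8, 28, 7, 0, 1 and 0, and 1 and 2 members were called in the interactions for LHX2 and ZNF711. With no filter on low counts they were 6, 16, 5, 2, 0 and 1, and 1 in the interaction for ZNF711. With only the groups compared in the fit they were 5 in AM LHX2 vs AM TRAC, 0 in AM TRAC vs VM TRAC and 1 in AM ZNF711 vs VM ZNF711. Scaling to total counts alone gave 2 in AM TRAC vs VM TRAC. Leaving out all libraries numbered 1 (chosen after seeing the data) gave 0 in AM TRAC vs VM TRAC and 2 in AM LHX2 vs VM LHX2, and with the replicate block on the 16 that remained the latter was 5. Leaving out the VM libraries numbered 3 (chosen after seeing the data) gave 2 in AM TRAC vs VM TRAC and 8 in VM ZNF711 vs VM TRAC. With 1 library left out in turn the count was 0 to 2 in AM TRAC vs VM TRAC, 0 to 1 in AM LHX2 vs VM LHX2, 0 to 4 in VM ZNF711 vs VM TRAC and 0 in the rest. Summing members that encode 1 protein left 26 tested features, of which 1 was called in AM TRAC vs VM TRAC. The share of all tested genes called was worked out only for the fits with and without the replicate block. The counts under other settings therefore cannot be set against such a share. The cause of these changes was not tested. No fold change of a named member changed sign under any setting run. The summed level ratios moved by less than the spread between libraries under both other scalings. They also did so with 1 library left out. However, leaving out 1 of 3 libraries cannot move a group mean by as much as the SD of those libraries. The outcome with 1 library left out was therefore all but fixed in advance, and no conclusion is drawn from it. The 17 members that were not tested had at most 34 counts each, too few for a comparison at this depth.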
